A study of Mus musculus with 12 samples.

Results

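The genes described here are 10 genes that mark the crypt base of the intestine or respond to Wnt signalling there: Lgr5, Olfm4, Ascl2 and Smoc2, known as stem cell genes, Axin2, Rnf43 and Znrf3, known as feedback inhibitors of the Wnt pathway, and Slc12a2, Cd44 and Sox9, expressed more broadly in crypts. They are the 10 of 53715 gene lines in the deposited table whose Ensembl identifier carries one of these symbols in GENCODE M21, and all 10 passed the filter on low counts that left 16558 genes to test. The intestinal crypt is a pocket of the epithelium whose base holds dividing stem cells. Wnt ligands bind Frizzled receptors and LRP co-receptors, β-catenin is then spared from degradation, and it acts with TCF/LEF factors to switch on target genes such as Axin2 and Lgr5. R-spondins, the ligands of Lgr receptors, strengthen the signal by removing Rnf43 and Znrf3, ubiquitin ligases that clear Frizzled from the cell surface.

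RNA of ileal and colonic mucosa was sequenced from C57BL/6J mice that were male and 8 weeks of age. The series holds 12 libraries, 3 mice per genotype and tissue. Control mice are labelled Slc39a8-fl/fl, though the study's methods describe a mixed pool of floxed, wild-type and Villin-Cre animals as controls. Slc39a8-IEC KO mice carried Slc39a8-fl/fl with Villin-Cre, a transgene that expresses Cre in intestinal epithelial cells, so Slc39a8, a metal ion transporter gene, was deleted in epithelium and not in other mucosal cells. The labels do not tie an ileal library to the colonic library of the same mouse. Levels are read counts scaled to CPM on TMM-scaled library sizes, and CPM per kb of exon length where genes are compared with each other.

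Library depth was between 16749138 and 27903083 expected counts. Slc39a8 had 94 to 155 counts in control and 59 to 73 in KO libraries of ileum, and the corresponding colonic counts were 407 to 427 and 156 to 222, so no KO library reached a control library of its tissue. The ileal marker Fabp6 had at least 50520 counts in every ileal library and at most 646 in every colonic one, the 646 being in colonic KO replicate 3. Ileal KO replicate 2 held 67342 counts of the colon marker Car1 and 1722 of Aqp8, against at most 2157 and 6 in the other 5 ileal libraries. Ileal control replicate 3 and ileal KO replicate 1 had summed levels of 6 smooth muscle genes of 34.2 and 20.2 CPM, against 1814 to 2643 CPM in the other 4 ileal libraries. Tests of the crypt genes are given below with and without these low-muscle libraries. Those of other named genes rest on all libraries. In bulk mucosa fewer cells of a type and less RNA per cell cannot be told apart.

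Before the values, the DNA just before an annotated transcript start of the strongly ileal genes Olfm4 and Axin2 is shown. Both differed by tissue, and these were the called genes with the largest differences. The sequences are RefSeq windows of GRCm38.p6, the 250 bases before each annotated transcript start, read 5′ to 3′ on the plus strand, the coding strand of both genes. They span chr14:80000052-80000301 for Olfm4 and chr11:108920099-108920348 for Axin2. The Olfm4 window lies inside the GENCODE M21 span of the gene (chr14:79984081-80023139), before a start within that span. Capitals mark a match to the TATA core TATAA.
Olfm4: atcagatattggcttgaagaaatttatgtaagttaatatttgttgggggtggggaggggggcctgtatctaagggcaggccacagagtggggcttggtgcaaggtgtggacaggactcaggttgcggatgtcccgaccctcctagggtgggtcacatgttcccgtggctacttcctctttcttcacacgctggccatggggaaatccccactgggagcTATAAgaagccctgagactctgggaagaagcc
Axin2: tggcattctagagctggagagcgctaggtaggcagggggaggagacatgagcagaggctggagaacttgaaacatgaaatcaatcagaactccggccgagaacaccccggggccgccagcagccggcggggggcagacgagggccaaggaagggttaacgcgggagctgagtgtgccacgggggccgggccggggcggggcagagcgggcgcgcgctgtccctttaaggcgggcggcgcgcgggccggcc
The Olfm4 window holds TATAA on the coding strand from 32 to 28 bases before the start, a motif that 22.8% of 32851 windows of the same length hold on either strand. The Axin2 window holds none. It is CpG-rich, with 24 CG pairs and 69.2% G and C, against 4 CG pairs and 54.0% in the Olfm4 window and medians of 6 pairs and 52.4% over all windows. The RefSeq windows covered 5 of the 10 genes, Cd44, Ascl2, Rnf43 with 2 starts, Axin2 and Olfm4. In none of the 6 windows did a search of both strands find a TCF/LEF core (CTTTGAA or CTTTGAT, and also CTTTGTA or CTTTGTT) or the RBPJ core GTGGGAA. These letters occur in 14.8% and 5.42% of all windows, and the search says nothing of TCF/LEF or RBPJ binding.

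Some of the 10 crypt genes were called between the tissues, and none was called between the genotypes. Colon had less RNA than ileum of 4 genes, Lgr5, Olfm4, Smoc2 and Axin2, and more of Cd44, in control and in KO mice alike by edgeR's quasi-likelihood test at an adjusted p of 0.1. Among all genes tested in control mice, 16.2% were called higher and 19.6% lower in colon, and in KO mice 17.1% and 20%. The 10 genes thus had 1 call in the upward and 4 in the downward direction against these backgrounds. With 10 genes, counts this small do not set crypt genes apart from all genes. The median log2 fold change of the 10 genes was -0.99 in control and -0.41 in KO mice, beside 0.02 and 0.01 over all genes. Control and KO mice are different animals, so the 2 tissue comparisons share no library, though they share 1 estimate of the spread. Scaling to 6 epithelial marker genes in place of TMM moved the median over all genes to 0.90 and 1.05, and the log2 values below are relative to the TMM scale. On the epithelial marker scale the balance of directions turned, with 4 crypt genes higher and 3 lower in colon in control mice and 5 higher and 3 lower in KO mice, where 67% and 73.6% of all genes were higher and 5.92% and 4.85% lower. Olfm4, Smoc2 and Axin2 were still called lower on that scale, Smoc2 at -0.88 and -0.72 and Axin2 at -1.87 and -1.83, and Lgr5 was not called (-0.86, adjusted p = 0.243, and -0.60, adjusted p = 0.404).

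Markers of other cells differed between the tissues in the same comparisons. On the TMM scale, 6 of 6 epithelial genes were lower in colon in both genotypes (median log2 fold change -0.85 and -0.84), as were 5 of 6 proliferation genes in control mice and 4 of 6 in KO mice (median -1.09 and -0.95) and 4 of 4 Paneth cell genes in both. Of 6 leukocyte genes, 3 and 4 were lower. Of 5 genes of enteric glia and neurons, 4 were higher in colon in KO mice and none was called in control mice by edgeR (1 at an unadjusted p under 0.05). The 6 smooth muscle genes, at medians of 0.93 and 1.27, and the 6 fibroblast genes, at 0.50 and 0.71, varied widely within ileum and had no call (0 at an unadjusted p under 0.05). The part of cell makeup in the tissue differences of the crypt genes was not tested.

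**Figure D1:**
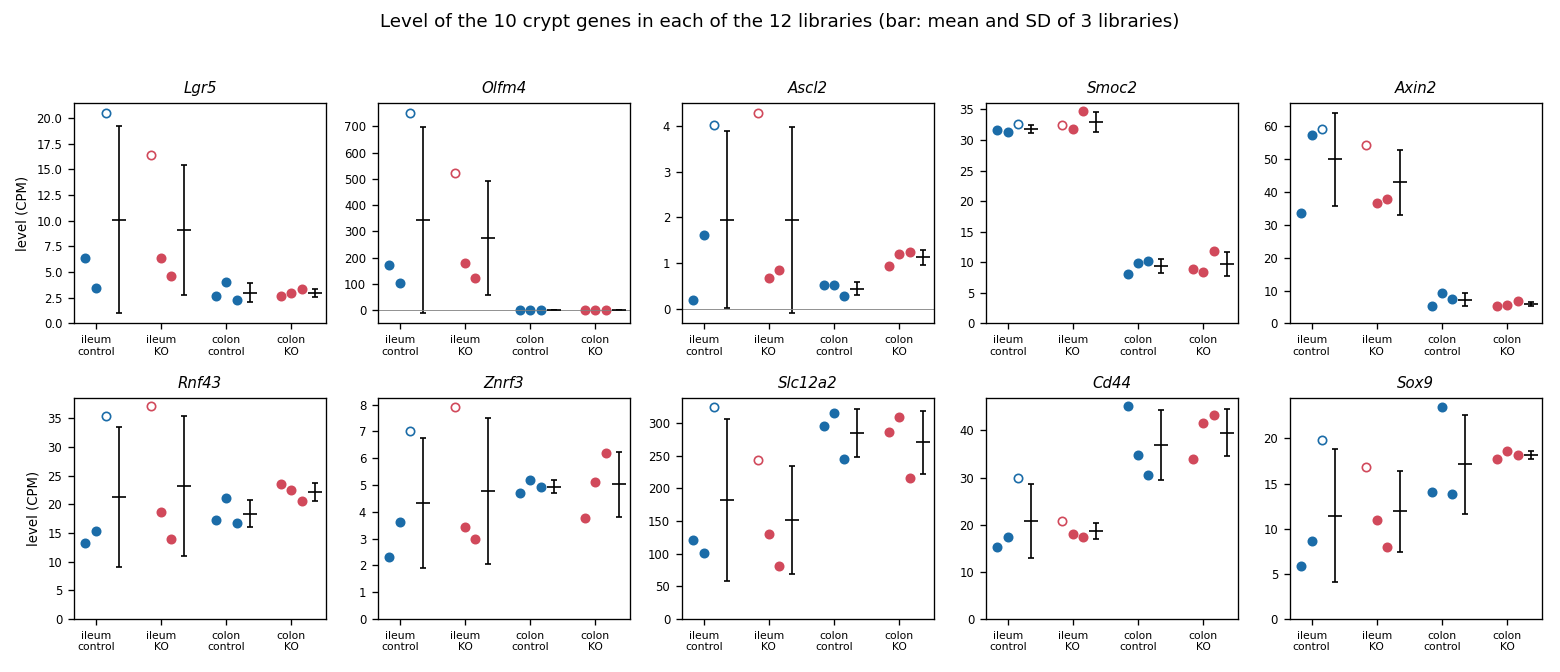
Level in CPM (vertical axes, linear, a separate scale for each gene) of the 10 crypt genes in the 12 libraries, by tissue and genotype (blue control, red KO). Each point is a library, open points are the 2 low-muscle ileal libraries, and black bars give mean and SD (n = 3). Open points lie above the other ileal points for 8 genes, Smoc2 and Axin2 being the exceptions.

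Olfm4, which encodes a secreted glycoprotein of stem cells in the small intestine, showed the widest gap of the 10 genes between tissues. Ileal control libraries held 2581, 1899 and 17683 counts and ileal KO libraries 8776, 4623 and 2569. Colonic control libraries held 0, 1 and 0 counts and colonic KO libraries 0, 1 and 3. Every ileal library was thus far above every colonic one. Summed over the mice, the ileal level was 24145-fold the colonic level in control (95% exact counting interval 4333 to 953710) and 4064-fold in KO mice (1587 to 14919), intervals that cover counting error only (adjusted p = 2.42e-05 and 3.2e-05 by edgeR). Within ileum the levels ranged from 106 to 751 CPM in control and 122 to 523 CPM in KO mice, with the low-muscle library highest in each genotype. Olfm4 lies on the plus strand at chr14:79984081-80023139 (GRCm38), and Gm6999, which shares 153 bases with it, had 0 CPM in every library.

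Lgr5, a receptor for R-spondins and the defining marker of crypt base stem cells, was a rare transcript in both tissues. In ileum it stood at 6.39, 3.44 and 20.5 CPM in control and 16.3, 6.33 and 4.64 CPM in KO mice. In colon it stood at 2.66, 4.03 and 2.26 CPM in control and 2.64, 2.95 and 3.36 CPM in KO mice. The tissues overlapped in control mice, where ileal replicate 2 lay below colonic replicate 2, and did not overlap in KO mice. The log2 fold change, colon over ileum, was -1.76 ± 0.62 (SE, adjusted p = 0.0544) in control and -1.60 ± 0.62 (adjusted p = 0.0751) in KO mice by edgeR. The calls were lost when single libraries were left out. In control mice this happened without ileal control replicate 3 (-0.73, adjusted p = 0.316), colonic control replicate 1 (-1.69, 0.141) or colonic control replicate 3 (-1.63, 0.157). In KO mice it happened without ileal KO replicate 1 (-0.87, adjusted p = 0.32) or without colonic KO replicate 1, 2 or 3 (-1.53, -1.60 and -1.71, adjusted p of 0.182, 0.173 and 0.139). The size of the difference fell by more than 1.5-fold without the low-muscle ileal library of the genotype and stayed near its value without the colonic libraries. Limma-voom did not call Lgr5 in either genotype (adjusted p = 0.133 and 0.168). The gene lies on the minus strand at chr10:115450311-115587780.

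Smoc2, which encodes a matricellular protein enriched in Lgr5 cells and also made by stromal cells, was the steadiest of the 10 genes within ileum. Its ileal levels were 31.7, 31.3 and 32.6 CPM in control and 32.4, 31.7 and 34.7 CPM in KO mice. Its colonic levels were 8.09, 9.84 and 10.2 CPM in control and 8.95, 8.34 and 11.9 CPM in KO mice. The low-muscle libraries did not stand apart for this gene, at 1.03 and 0.97 times the mean of the other ileal libraries of their genotype, and the tissues did not overlap. Ileum was 3.40-fold above colon in control and 3.39-fold in KO mice by mean CPM, with log2 fold changes of -1.76 ± 0.16 (SE, adjusted p = 9.44e-06) and -1.76 ± 0.16 (adjusted p = 9.97e-06). Smoc2 lies on the plus strand at chr17:14279506-14404790.

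Ascl2, a transcription factor that sets stem cell identity and is itself a Wnt target, had few counts. The ileal libraries held 3, 29 and 95 counts in control and 72, 17 and 18 in KO mice, and the colonic libraries 10, 11 and 6 in control and 20, 23 and 30 in KO mice. The ileal and colonic ranges overlapped in both genotypes. The tissue log2 fold change was -2.16 ± 0.92 (SE, adjusted p = 0.104) in control and -0.76 ± 0.86 (adjusted p = 0.538) in KO mice. The control value passed the threshold with DESeq2 (adjusted p = 0.0543), with no filter on low counts (0.0998), and without ileal control replicate 1 (0.0272), ileal KO replicate 1 (0.0492) or ileal KO replicate 2 (0.0985). It was reduced to -1.08 (adjusted p = 0.426) without ileal control replicate 3. The KO value changed sign without ileal KO replicate 1 (0.58) and under scaling by epithelial markers (0.24). Ascl2 lies on the minus strand at chr7:142966829-142969264.

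Axin2, a scaffold of the β-catenin destruction complex and a widely used readout of Wnt activity, was several-fold higher in ileum. Ileal levels were 33.4, 57.1 and 58.9 CPM in control and 54.3, 36.5 and 37.7 CPM in KO mice. Colonic levels were 5.17, 9.36 and 7.30 CPM in control and 5.42, 5.54 and 6.77 CPM in KO mice. Every ileal library lay far above every colonic one. The log2 fold change, colon over ileum, was -2.77 ± 0.28 (SE, adjusted p = 2.48e-05) in control and -2.85 ± 0.28 (adjusted p = 2.2e-05) in KO mice. It was -2.66 and -2.64 without the low-muscle libraries. Axin2 lies on the plus strand at chr11:108920349-108950783, and its opposite-strand neighbour Gm11670, which overlaps it by 209 bases, had 0 CPM in every library.

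The feedback ligases Rnf43 and Znrf3 did not pass the tissue test on the TMM scale, unlike Axin2. Rnf43 stood at 13.2, 15.3 and 35.4 CPM in ileal control and 37.1, 18.8 and 14.0 CPM in ileal KO libraries, while colonic values were 16.8 to 21.1 CPM in control and 20.5 to 23.5 CPM in KO mice. The colonic values fell inside the ileal range. Its tissue log2 fold change was -0.22 ± 0.39 (SE, adjusted p = 0.712) in control and -0.07 ± 0.39 (adjusted p = 0.912) in KO mice, and the sign turned under several settings, to 0.35 without ileal control replicate 3 and 0.44 to 0.45 without ileal KO replicate 1, alone or with the other low-muscle library. In KO mice it also turned with upper-quartile scaling (0.07), library size only (0.17) and epithelial marker scaling (0.94), and in control mice with the last (0.68). Znrf3 stood at 2.33, 3.61 and 7.01 CPM in ileal control and 7.93, 3.44 and 2.98 CPM in ileal KO libraries, while colonic values were 4.71 to 5.18 CPM in control and 3.77 to 6.19 CPM in KO mice. Its values also overlapped between tissues, with log2 fold changes of 0.19 ± 0.44 (SE, adjusted p = 0.78) and 0.08 ± 0.44 (adjusted p = 0.909). On the epithelial marker scale Znrf3 passed in both genotypes (1.08, adjusted p = 0.0572, and 1.10, adjusted p = 0.0495) and Rnf43 in KO mice (adjusted p = 0.0583). The control value of Znrf3 turned to -0.11 without ileal control replicate 1, and the KO value turned negative without ileal KO replicate 2, ileal KO replicate 3 or colonic KO replicate 3 (-0.11 to -0.17). Both genes lie on chromosome 11, at chr11:87662722-87735539 (Rnf43, plus strand) and chr11:5276324-5444847 (Znrf3, minus strand).

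Cd44, a hyaluronan receptor and Wnt target of crypt cells that leukocytes also carry, was the 1 gene of the 10 called higher in colon. Ileal levels were 15.4, 17.3 and 29.9 CPM in control and 20.7, 18.1 and 17.4 CPM in KO mice. Colonic levels were 45.2, 34.8 and 30.6 CPM in control and 33.8, 41.6 and 43.2 CPM in KO mice. The tissues did not overlap, although ileal control replicate 3 came close to colonic control replicate 3. The log2 fold change was 0.82 ± 0.24 (SE, adjusted p = 0.0245) in control and 1.08 ± 0.24 (adjusted p = 0.00596) in KO mice, or 1.77-fold and 2.11-fold by mean CPM. The control call was lost without colonic control replicate 1 (0.65, adjusted p = 0.101). The summed level of 6 leukocyte genes was 49.1 to 71.3 CPM in ileum and 16.9 to 32.4 CPM in colon. The part of leukocytes or other cells in the Cd44 difference was not tested. Cd44 lies on the minus strand at chr2:102811141-102901665.

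Slc12a2, a sodium-potassium-chloride cotransporter of secreting crypt cells, and Sox9, a transcription factor of crypt progenitors, had higher colonic than ileal means, but neither was called on the TMM scale. Slc12a2 stood at 121, 101 and 324 CPM in ileal control and 243, 129 and 81.4 CPM in ileal KO libraries, against 295, 316 and 245 CPM in colonic control and 286, 308 and 216 CPM in colonic KO libraries. The low-muscle ileal library lay above all 3 colonic libraries in control mice and within their range in KO mice, and the other ileal libraries lay below them. The log2 fold change of Slc12a2 was 0.65 ± 0.45 (SE, adjusted p = 0.306) in control and 0.84 ± 0.45 (adjusted p = 0.183) in KO mice. It passed the threshold in control mice without ileal control replicate 3 (1.34, adjusted p = 0.0211), and in KO mice without ileal KO replicate 1 (1.37, 0.0473) or ileal control replicate 3 (0.83, 0.0692). Sox9 stood at 5.92, 8.67 and 19.8 CPM in ileal control and 16.8, 10.98 and 8.01 CPM in ileal KO libraries, against 14.1, 23.5 and 13.8 CPM and 17.7, 18.7 and 18.1 CPM in colon. The Sox9 ranges overlapped in control mice through ileal control replicate 3 and did not overlap in KO mice. Its log2 fold change was 0.57 ± 0.41 (SE, adjusted p = 0.321) and 0.61 ± 0.41 (adjusted p = 0.288), and without ileal control replicate 3 it passed in control mice (1.21, adjusted p = 0.0205). On the epithelial marker scale both genes passed in control and KO mice, Slc12a2 at 1.54 (adjusted p = 0.0138) and 1.85 (0.00479) and Sox9 at 1.48 (0.0108) and 1.63 (0.00572). Sox9 lies on the plus strand at chr11:112782224-112787760.

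The number of crypt genes called depended on the low-muscle libraries. Both were above the other 4 ileal libraries for 8 of the 10 genes, while 23.2% of all genes tested were above and 27.2% below in both. Ascl2 was 4.46 times and 5.66 times the mean of the other ileal libraries of its genotype in the control and the KO library, Olfm4 5.42 and 3.46 times, and Lgr5 4.17 and 2.98 times. Slc12a2, Rnf43, Znrf3 and Sox9 were between 1.77 and 2.92 times as high, and Cd44 1.83 and 1.16 times. The stem cell genes stood further above the other ileal libraries than the broader crypt genes did, with Smoc2 as the exception. Genes of other cells moved in the same libraries. The summed level of 6 proliferation genes was 717 and 522 CPM against 299 to 395 CPM in the other 4, and that of 4 Paneth cell genes 13069 and 10362 CPM against 4252 to 6840 CPM. The sum of 6 fibroblast genes was 43.3 and 40.8 CPM against 313 to 599 CPM, that of 6 leukocyte genes 61.8 and 67.6 CPM against 49.1 to 71.3 CPM, and the B cell gene Cd79a 12.7 and 13.8 CPM against 0.599 to 3.36 CPM. The sum of 6 epithelial genes, at 15293 and 15937 CPM, lay within the 14773 to 18281 CPM of the others. The part of tissue composition in the levels of the crypt genes was not tested.

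**Figure D2:**
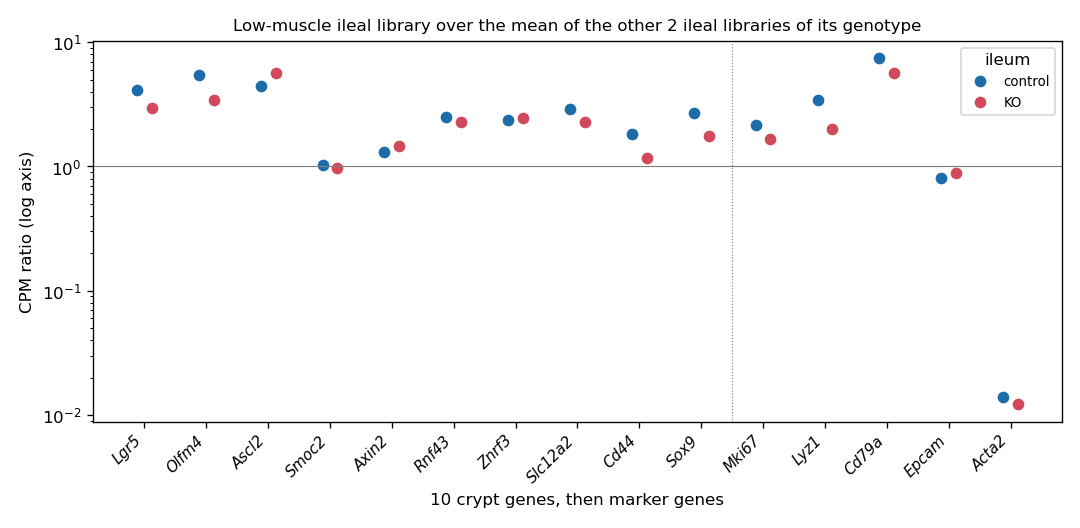
Level of each crypt gene and of 5 marker genes in the low-muscle ileal library, as a ratio to the mean CPM of the other 2 ileal libraries of the same genotype (log axis, 1 library over 2, with no error bars). Control is blue and KO red, and the line is a ratio of 1. Ratios for 9 of the 10 crypt genes are above 1 in both genotypes, those of Smoc2 being 1.03 and 0.97, while the smooth muscle gene Acta2 stands near 0.01.

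Without the low-muscle libraries, 7 crypt genes were called in control mice and 9 in KO mice. The share called over all genes rose too. Of the 16896 genes then tested, 3368 were higher and 3722 lower in colon in control mice, and 3631 and 3667 in KO mice. With all libraries, 2689 and 3251 of 16558 genes were called in control mice, and 2837 and 3312 in KO mice. Slc12a2 (log2 fold change 1.34, adjusted p = 0.000764, and 1.37, adjusted p = 7e-04), Sox9 (1.21, 0.004, and 0.94, 0.0131) and Znrf3 (0.71, 0.0708, and 0.65, 0.0824) joined Cd44 as genes higher in colon in both genotypes, and Rnf43 (0.44, adjusted p = 0.0626) did so in KO mice. Lgr5 lost its call in control mice (-0.73, adjusted p = 0.107) and kept it in KO mice (-0.87, adjusted p = 0.0538). Olfm4, Smoc2 and Axin2 were called lower in colon in both genotypes with or without these libraries. This left Ascl2 as the sole crypt gene with no call in KO mice. The ileal groups then hold 2 mice each.

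**Figure D3:**
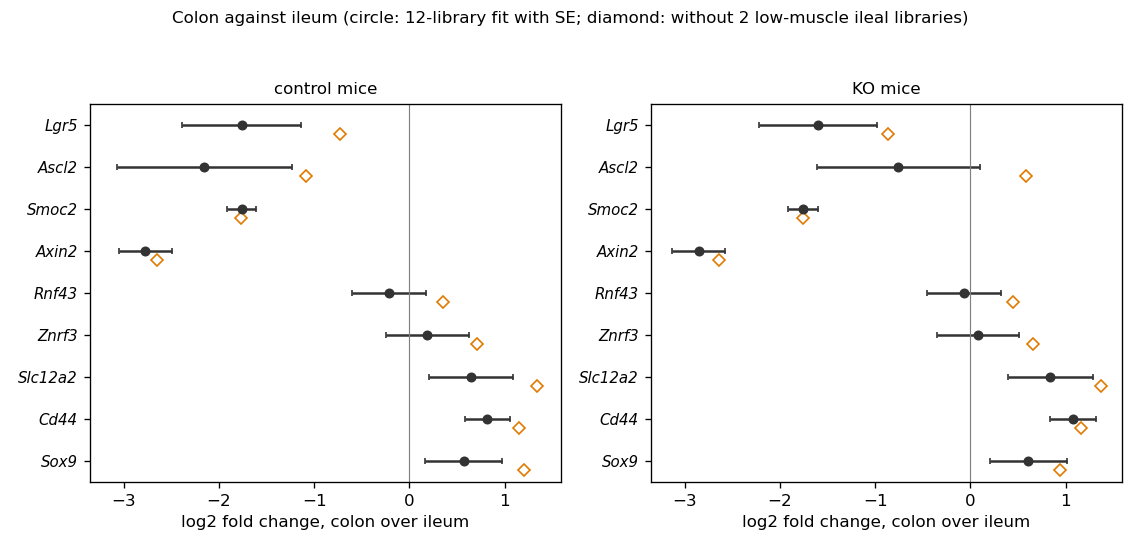
Log2 fold change of colon over ileum (horizontal axes) for 9 crypt genes in control mice (left) and KO mice (right). Circles with bars give the fit to 12 libraries with SE, and diamonds the fit without the 2 low-muscle ileal libraries. Diamonds lie to the right of circles for each gene but Smoc2, and past zero for Rnf43 in both panels and Ascl2 in KO mice. Olfm4, with 0 to 3 counts per colonic library, is not drawn.

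The order of the 10 genes by level per kb of exon differed between the tissues. In ileal control libraries Olfm4 led at 116 ± 120 CPM per kb (SD, n = 3), followed by Slc12a2 at 16.7 ± 11.3, Axin2 at 9.04 ± 2.58 and Smoc2 at 4.58 ± 0.0941. Rnf43, Cd44, Sox9, Ascl2, Lgr5 and Znrf3 followed between 3.25 and 0.547 CPM per kb, and each of these overlapped its neighbour over the 3 libraries. Slc12a2 and Axin2 also overlapped, as did Smoc2 and Rnf43, while Olfm4 was separate from Slc12a2 and Axin2 from Smoc2. In colonic control libraries Slc12a2 led at 26.1 ± 3.36 CPM per kb, then Cd44 at 5.44 ± 1.11, Sox9 at 4.14 ± 1.33 and Rnf43 at 2.81 ± 0.359. Smoc2 and Axin2 (1.35 ± 0.161 and 1.32 ± 0.380) overlapped each other, as did Cd44 and Sox9, and Lgr5 and Ascl2 (0.291 ± 0.0904 and 0.272 ± 0.0846), while Olfm4 was last at 0.0054 CPM per kb. KO mice gave the same first 5 genes in ileum and in colon as control mice did.

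Deletion of Slc39a8 in the epithelium was the comparison the study was built for. No crypt gene was called between KO and control mice in ileum, in colon, over both tissues or in the difference between tissues by edgeR (0 of 10 each, with 0% of the 16558 genes called in each). Slc39a8, the deleted gene, was not called either, at log2 fold changes of -1.05 in ileum, -1.20 in colon and -1.13 over both tissues. It had an unadjusted p under 0.05 by edgeR in each of these. The paper, which used DESeq2 with ileum and colon combined, reports Slc39a8 as lower among 4 genes called at the same limit. The lack of calls by edgeR thus does not show that a change of this size was absent. At an unadjusted p under 0.05 the counts were 0 of the 10 crypt genes in each of the 4 comparisons, against 252 (1.52%), 385 (2.33%), 641 (3.87%) and 169 (1.02%) of all genes. DESeq2 and limma-voom also called none of the 10. Over all genes DESeq2 called 2 in ileum, 0 in colon, 3 higher and 1 lower over both tissues and 1 in the difference, and limma-voom 1, 0, 1 and 0. The median log2 fold change, KO over control, of the 10 genes was -0.11 in ileum and 0.07 in colon.

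**Figure D4:**
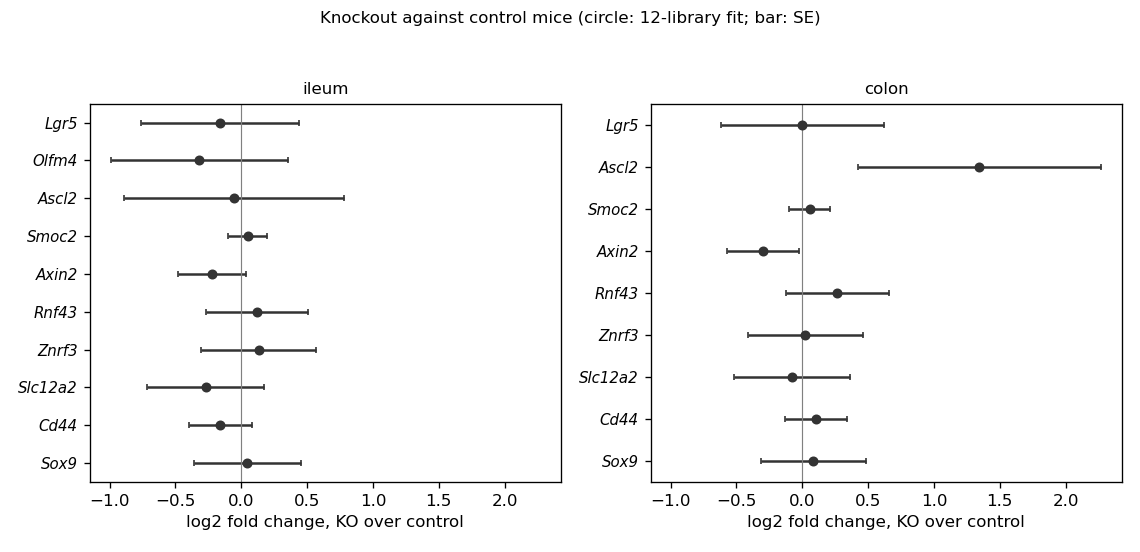
Log2 fold change of KO over control (horizontal axes) for the crypt genes in ileum (left, 10 genes) and colon (right, 9 genes, Olfm4 not drawn), from the fit to 12 libraries, with SE as bars. Values lie between -0.32 and 0.27 but for Ascl2 in colon at 1.35, and the bars cross zero for every gene but Axin2 and Ascl2 in colon. The sign turns for 8 of the ileal values when a library is left out.

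In ileum the log2 fold changes ran from -0.32 ± 0.67 (SE) for Olfm4 to 0.13 ± 0.44 for Znrf3, each with an adjusted p of 1 by edgeR. Smoc2 gave the tightest value, 0.05 ± 0.15, followed by Cd44 at -0.16 ± 0.24 and Axin2 at -0.22 ± 0.26. Lgr5 was at -0.16 ± 0.60. The sign of 8 of the 10 values depended on single libraries, Smoc2 and Axin2 being the exceptions. Without ileal control replicate 3, Lgr5 became 0.90, Olfm4 1.001, Ascl2 1.05, Slc12a2 0.45 and Cd44 0.20, with adjusted p of 0.58 to 0.696, and without ileal KO replicate 1, Rnf43 became -0.41, Znrf3 -0.46 and Sox9 -0.31. With both low-muscle libraries left out, the values of the 10 genes lay between -0.30 for Ascl2 and 0.37 for Sox9. The ileal groups of the 10 genes overlapped in every case, and 3.7% of all genes tested had groups that did not.

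In colon the values of 8 of the genes ran from -0.30 ± 0.27 (SE) for Axin2 to 0.27 ± 0.39 for Rnf43, each with an adjusted p of 1 by edgeR. Lgr5 was at 0.00 ± 0.62, Smoc2 at 0.06 ± 0.15 and Cd44 at 0.10 ± 0.24. Ascl2 was the 1 crypt gene whose colonic groups did not overlap, with 0.512, 0.528 and 0.282 CPM in control and 0.942, 1.19 and 1.25 CPM in KO mice, at a log2 fold change of 1.35 ± 0.92 (adjusted p = 1). Groups did not overlap for 12.8% of all genes tested in colon, and the Ascl2 values rest on 6 to 30 counts per library. Olfm4, with 0 to 3 counts per colonic library, gave no usable fold between genotypes.

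Of 77 other genes of the Wnt pathway and of crypts, 68 passed the filter, and none was called by genotype in either tissue. Their values are from all libraries and are not given without the low-muscle ones. Between tissues, 9 (13.2%) were higher and 14 (20.6%) lower in colon in control mice, and 10 (14.7%) and 13 (19.1%) in KO mice, shares near those of all genes (16.2% and 19.6%, and 17.1% and 20%). The lists below are given for control mice unless KO mice are named. Among 15 Wnt ligands and R-spondins (11 tested), 2 were lower in colon in control mice, Wnt3 and Wnt6. Wnt3 (adjusted p = 0.00473) had 0 counts in each of 3 colonic libraries and 11, 25 and 130 in ileum. Wnt6 (-2.44 ± 0.65, SE) had low levels, at 0.10 to 1.04 CPM in colonic libraries. In KO mice Wnt3 was called lower again and Wnt6 was not called, its colonic mean being 0.80 times the ileal one. Wnt3 is the ligand known from Paneth cells, and 4 Paneth cell genes summed to 4252 to 13069 CPM in ileal and 5.13 to 12.04 CPM in colonic libraries. The part of Paneth cells in the Wnt3 difference was not tested. The 14 Wnt receptors and co-receptors (12 tested) were split, with Fzd3 (1.67 ± 0.41), Fzd8 (1.46 ± 0.27) and Fzd1 (0.71 ± 0.20) higher and Fzd9 (-2.71 ± 1.04), Lrp5 (-1.34 ± 0.27) and Fzd7 (-0.55 ± 0.22) lower in colon. Fzd9 stood at 1.955 and 2.265 CPM in the low-muscle control and KO libraries, against 0.067 to 0.889 CPM in the other ileal ones. In KO mice 4 receptors were higher, Fzd4 (1.34 ± 0.27) among them, and 2 lower, Lrp5 and Lgr4, while Fzd7 and Fzd9 were not called. Among 17 signal transducers (16 tested), Btrc (0.63 ± 0.22), which takes part in β-catenin degradation, was higher, and Tcf7 (-1.24 ± 0.43), Csnk1a1 (-0.61 ± 0.13) and Ctnnb1 (-0.50 ± 0.13), which encodes β-catenin, were lower together with Gsk3a. In KO mice 5 transducers were lower and Btrc was not called. On the epithelial marker scale Csnk1a1, Ctnnb1, Gsk3a and Fzd7 turned to 0.28, 0.39, 0.42 and 0.34 in control mice. All but Fzd7 (adjusted p = 0.223) were then called higher in colon (0.0816, 0.0239 and 0.00618). The calls of Lrp5 (-0.45, adjusted p = 0.173), Tcf7 (-0.34, 0.501) and Fzd9 (-1.83, 0.14) were lost. In KO mice Csnk1a1 (0.489, adjusted p = 0.0061), Ctnnb1 (0.471, 0.00793), Dvl1 (0.723, 0.00204), Gsk3a (0.435, 0.0044) and Lgr4 (0.60, 0.00424) turned and were called higher. Lrp5 (-0.358, adjusted p = 0.257) and Tcf7 (-0.249, 0.614) lost their calls there. The 14 inhibitors (12 tested) had 3 genes higher in colon in control mice and 4 in KO mice, and none lower in either. They were the secreted Wnt binders Wif1 (3.86 ± 0.56) and Sfrp4 (2.91 ± 0.69) and the Dkk receptor Kremen1 (0.99 ± 0.18), joined in KO mice by Frzb (1.86 ± 0.61, adjusted p = 0.0407). Ileal levels were low, at 0.067 to 0.417 CPM for Wif1 and 0 to 0.19 CPM for Sfrp4.

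Among 17 other crypt and Wnt target genes, all tested, 2 were higher and 5 lower in colon in control mice. Sp5, a transcription factor induced by Wnt, shared the direction of Axin2, with 31, 26 and 65 counts in ileal and 3, 2 and 2 in colonic control libraries (-4.13 ± 0.52, SE, adjusted p = 0.000136). Ccnd1 (-1.63 ± 0.37) and Hopx (-1.15 ± 0.38) were also lower, with Tnfrsf19 and Cdca7. On the epithelial marker scale the calls of Hopx (-0.24, adjusted p = 0.589), Tnfrsf19 (-0.12, 0.742) and Cdca7 (-0.01, 0.981) were lost in control mice, and Hopx and Tnfrsf19 changed sign in KO mice (0.11 and 0.15). Ccnd1 kept its call in control mice (-0.71, adjusted p = 0.0857) and lost it in KO mice (-0.23, 0.548). Prom1, a membrane protein known from stem and progenitor cells, was the gene with the smallest p of this list, at 83.9 ± 12.3 CPM in ileal and 532 ± 32.7 CPM in colonic control libraries (SD, n = 3, adjusted p = 1.04e-05), and Cd24a (1.86 ± 0.33) was higher as well. The median log2 fold change in control mice was -0.46 for this list and 0.63 for the inhibitors, beside 0.02 over all genes. In KO mice the medians were -0.19 and 0.94, beside 0.01. Both lists differed in the low-muscle ileal libraries. The inhibitors summed to 21.2 and 19.7 CPM there, against 45.5 to 59.2 CPM in the other 4. The 17 other crypt genes summed to 935 and 818 CPM, against 512 to 625 CPM. The part of tissue composition in these medians was not tested.

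Across the 12 libraries, the genes with the highest Pearson r of log2 CPM with Lgr5 were Vwa1 (0.979), Kif18b (0.969) and Pole (0.969), and those with Axin2 included Mmp7 (0.990) and Pla2g2a (0.988). These r values describe libraries of 2 tissues with different levels. After group means were removed, the closest genes were A4gnt (0.982), Stox2 (0.979) and Mnt (0.979) for Lgr5, and Mef2c (0.971), Cdh5 (0.962) and Igf1r (0.961) for Axin2. On that scale Lgr5 moved with Olfm4 (0.971), the proliferation gene Mki67 (0.966), Slc12a2 (0.921) and Rnf43 (0.903), and against Acta2 (-0.882), while its r with Axin2 was 0.464 and with Smoc2 0.089. Over the 45 pairs of crypt genes the median r was 0.747 after removal of group means, with 41 pairs positive, and 0.351 before. All points share the low-muscle libraries, in which 8 of these genes were high.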

How the data were processed

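RNA-seq libraries were made from oligo-dT cDNA of mucosal RNA and read as paired ends. The labels and methods name STAR and mm10, and the study's reporting summary names Gencode, uniquely mapped reads, UMI-tools and FeatureCounts. The authors deposited expected counts per gene and library, not normalized. Which program estimated them, and hence the way it shared out reads between similar genes, is not stated in the labels or methods. Of the values, 93.7% were whole to the 2 decimals written, and 92 spike-in lines held no count and were left out. Every column of values was assigned to a library by its title. Ileal columns lack the first letter of the titles (LWT for ILWT, LISKO for ILISKO) and match no other title, and tissue was checked through marker genes.

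Expected counts were rounded. edgeR 4.0.16 in R 4.3.3 (filterByExpr with 4 groups, TMM, glmQLFit and glmQLFTest on a 4-group model, tissue plus genotype for both tissues) gave p-values adjusted by the Benjamini-Hochberg method over 16558 genes, called below 0.1, the study's own limit. Standard errors are the log2 fold change over the square root of F. Log2 CPM used a prior count of 2. Intervals of the Olfm4 ratio are exact binomial and cover counting error only. Exon lengths and positions are from GENCODE M21 (GRCm38, mm10), matched on Ensembl identifiers without version (51464 of 53715 had the same version). Adjusted p-values are from edgeR unless DESeq2 1.42.0 or limma-voom (limma 3.58.1) is named. The fitting steps were tested on simulated data. Figures used matplotlib 3.10.9 in Python 3.11.15.

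Replicate numbers recur in the groups, but deviations of same-numbered libraries from their group means correlated at -0.55, 0.403 and -0.694 between ileal genotypes, at 0.032, -0.055 and 0.09 between colonic genotypes, and between tissues at -0.054, 0.165 and -0.08 in control and 0.192, 0.051 and 0.251 in KO mice. No comparison had every correlation over 0.1, so the numbers were not taken as pairs. The low-muscle libraries are among these deviations, so the correlations cannot settle whether an ileal and a colonic library came from the same mouse. The libraries are taken as independent (n = 3 mice per group), and p-values measure the spread between them. If tissues share mice, tests across tissues count such a mouse more than once. The 10 genes, the lists of pathway genes and cell markers and the low-muscle libraries were chosen with earlier results of these data known. Named genes are the 10 genes, up to 3 rising and 3 falling genes of each pathway list by size of change between tissues in control mice, the 3 genes most like Lgr5 and Axin2, and listed markers, of which 1 gene is not reported here. The remaining called genes of a list (Gsk3a, Tnfrsf19, Cdca7, and Fzd4, Lgr4, Dvl1 and Frzb in KO mice) and the genes correlated with Lgr5 that are no top genes were named after their values were seen. Alternatives were other scalings and filters, DESeq2, limma-voom, a replicate block, 6 libraries alone, a threshold of 0.05 and each library left out.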

Additional observations from a re-analysis of the deposited data

How the results depend on the processing

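Of 1078 values recomputed, 977 were counted as unchanged. For a fold change this meant the same direction and side of the threshold. For a number of crypt genes called it meant a number equal or close to that of the main analysis. No crypt gene was called between genotypes under any setting run. In KO mice, 8 crypt genes were called between tissues under epithelial marker scaling (5 higher, 3 lower), where 73.6% of all genes were higher and 4.85% lower. In control mice 4 were higher and 3 lower, beside 67% and 5.92% of all genes. Without the low-muscle libraries 9 were called in KO mice, against 5 in the main analysis. Calls over all genes rose as well, to 3631 higher and 3667 lower of 16896, from 2837 and 3312 of 16558. Over single libraries left out, the count was 3 to 6 in control mice and 4 to 6 in KO mice. The 3 came without colonic control replicate 1, where 2176 of 17034 genes were higher and 2702 lower. The replicate block called 4 genes in each genotype, losing Lgr5 (adjusted p = 0.132 and 0.119). It turned KO over control to 0.082 for Olfm4 in ileum and -0.052 for Lgr5 in colon. Over all 16558 genes it called 2417 higher and 2916 lower in colon in control mice, and 2573 and 2985 in KO mice. Upper-quartile scaling moved the median over all genes between tissues from 0.016 and 0.014 to 0.116 and 0.145, and library size alone to 0.238 and 0.286.

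Signs turned as follows, on the log2 scale, and the cause was not tested. For KO over control in colon, Lgr5 was -0.001 with upper-quartile scaling, -0.007 with epithelial marker scaling, -0.007 with at least 1 CPM in 3 libraries and -0.004 with 6 libraries alone, and Slc12a2 was 0.02 with library size only. For KO over control in ileum, epithelial marker scaling gave -0.097 for Smoc2 and -0.07 for Sox9, and leaving out the low-muscle libraries gave 0.155 for Lgr5, 0.114 for Olfm4 and 0.107 for Cd44. For colon over ileum in KO mice, Rnf43 was 0.071 with upper-quartile scaling, 0.172 with library size only, 0.938 with epithelial markers, 0.081 with limma-voom and 0.442 without the low-muscle libraries, and Ascl2 was 0.24 with epithelial markers and 0.581 without those libraries. In control mice, Rnf43 was 0.683 with epithelial markers and 0.348 without those libraries.

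With single libraries left out, KO over control in ileum ranged from -0.918 to 0.896 for Lgr5, -1.215 to 1.001 for Olfm4, -1.417 to 1.052 for Ascl2, -0.412 to 0.711 for Rnf43, -0.463 to 0.681 for Znrf3, -0.818 to 0.452 for Slc12a2, -0.335 to 0.197 for Cd44 and -0.307 to 0.709 for Sox9. In colon it ranged from -0.15 to 0.279 for Lgr5, -0.1 to 0.169 for Smoc2, -0.139 to 0.206 for Znrf3, -0.166 to 0.075 for Slc12a2, -0.004 to 0.274 for Cd44 and -0.038 to 0.38 for Sox9. Colon over ileum ranged in control mice from -0.466 to 0.35 for Rnf43 and -0.108 to 0.713 for Znrf3. In KO mice it ranged from -1.179 to 0.581 for Ascl2, -0.334 to 0.445 for Rnf43 and -0.172 to 0.654 for Znrf3. Depth limits Ascl2 and colonic Olfm4, which had few counts per library. It also limits pathway genes at low levels, such as Wnt6, Fzd9, Wif1 and Sfrp4.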
